A study of Mus musculus with 6 samples.

Results

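Genes of the unfolded protein response and of protein folding in the endoplasmic reticulum (ER) were followed in RAW 264.7 cells given an acidic plant polysaccharide. The set holds 40 gene symbols, chosen by name and role with earlier results of these data known. All 40 were rows of a deposited count table of 22192 genes. RAW 264.7 is a mouse macrophage-like line of BALB/c origin, transformed by a leukaemia virus. The 3 libraries labelled ASPS-A1 came from cells kept for 24 h with 200 µg/mL of ASPS-A1, an acidic polysaccharide isolated from leaves of Acanthopanax senticosus. The 3 libraries labelled control came from the same line, and the labels do not say what these cells received. Titles of the treated libraries carry the numbers ASPS-A1, ASPS-A2 and ASPS-A3, but all 3 name ASPS-A1 as their treatment and were taken as its replicates. Nothing in the labels says that libraries came from separate cultures, so p-values measure the spread between these libraries, which may be technical.

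Proteins that enter the ER pass through the Sec61 channel, are folded by chaperones such as BiP and calreticulin, and are sent back to the cytosol for destruction when folding fails. Membrane sensors (the products of Ern1, Atf6 and Eif2ak3) register unfolded protein and raise the transcription of chaperone and degradation genes, while the kinase encoded by Eif2ak3 also slows translation. Activated macrophages secrete many proteins that fold in the ER, among them the cytokine TNF, while some of their cytokines leave the cell by other routes.

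The promoter letters that are best known for this response are the ER stress response elements, which bind cleaved ATF6 and spliced XBP1 together with NF-Y. The windows shown here are the members' matches to the element ERSE (CCAAT, any 9 bases, then CCACG) and to ERSE-II (ATTGG, any 1 base, then CCACG), because the members that hold them include the largest rise, genes not past the threshold and a gene that fell. The ERSE of Derl3, which had no counts, and the ERSE-II of Dnajb11, which lies past the start, are not shown. Sequences and start sites are from RefSeq on build GRCm38.p6, in windows from 250 bases before to 50 after each start, and 34 of the 40 members had a window. Each line gives 10 bases on either side of the match, on the strand of the motif, with the fixed bases of the motif in capitals.
Hspa5 ERSE, chr2:34772015-34772053, plus strand: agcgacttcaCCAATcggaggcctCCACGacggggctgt
Creld2 ERSE, chr15:88819510-88819548, minus strand: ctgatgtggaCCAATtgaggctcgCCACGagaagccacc
Calr ERSE, chr8:84847065-84847103, plus strand: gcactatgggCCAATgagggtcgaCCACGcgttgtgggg
Pdia6 ERSE, chr12:17266481-17266519, plus strand: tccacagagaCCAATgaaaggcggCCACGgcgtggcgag
Dnajc3 ERSE, chr14:118937817-118937855, plus strand: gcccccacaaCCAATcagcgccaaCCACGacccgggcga
Canx ERSE, chr11:50325790-50325828, minus strand: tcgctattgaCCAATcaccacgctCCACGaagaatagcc
Syvn1 ERSE, chr19:6046522-6046560, plus strand: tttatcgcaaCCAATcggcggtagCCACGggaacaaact
Herpud1 ERSE-II, chr8:94386367-94386397, plus strand: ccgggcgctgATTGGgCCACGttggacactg
The Hspa5 promoter holds a second element of the response, the UPRE core TGACGTG, and is shown over the 250 bases before the start (chr2:34771840-34772089, plus strand) with both matches in capitals.
Hspa5 promoter: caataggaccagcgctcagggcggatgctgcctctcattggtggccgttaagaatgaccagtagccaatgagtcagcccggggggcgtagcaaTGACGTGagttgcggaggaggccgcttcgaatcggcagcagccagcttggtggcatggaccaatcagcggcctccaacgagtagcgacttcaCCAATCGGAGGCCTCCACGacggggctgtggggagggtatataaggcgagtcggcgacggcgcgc

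Libraries held 19989318 to 22179544 counts with ASPS-A1 and 23113454 to 26137127 in control. Values are given as CPM, the counts of a gene per 1000000 counts of its library after scaling with trimmed-mean (TMM) factors, and changes as log2 fold changes of ASPS-A1 minus control. All 8 macrophage markers examined were abundant, with summed counts of 68214 to 76075 per library with ASPS-A1 and 62760 to 71988 in control. Of these 8, 6 rose and 2 (Csf1r and Ptprc) were not past the threshold, so they moved with many of the results below, and their part in those results was not tested. Markers of other cells were near 0, with summed counts per library of 10 to 15 with ASPS-A1 and 11 to 15 in control for 6 fibroblast genes. For 5 epithelial genes the sums were 0 to 5 with ASPS-A1 and 0 to 3 in control, with Epcam and Krt8 at 0 throughout. For 5 T cell genes the sums were 87 to 127 with ASPS-A1 and 55 to 74 in control, nearly all of it Lck, with Cd3e, Cd3g and Cd2 at 0.

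Most of the ER folding and degradation genes were higher with ASPS-A1, and 2 of the pathway's own regulators were among the genes that fell. Of the 39 members abundant enough to test, 26 rose and 6 fell, and 7 did not pass an adjusted p of 0.05 (edgeR quasi-likelihood test, Benjamini-Hochberg over all 11686 genes tested). Rises therefore covered 66.7% of tested members, against 32.4% of all genes tested, and falls 15.4%, against 33.0%. The members were chosen with earlier results of these data known, so these shares describe the list and are no test of it. The response as a whole was broad, with 65.3% of all genes called. The median log2 fold change of the tested members was 0.29, beside −0.021 over all genes tested. Libraries of the 2 groups did not overlap for 26 members that were higher and 7 that were lower, against 33.7% and 34.8% of all genes, or 68.5% in both directions.

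Sizes were mostly modest. At 1.5-fold or more, 13 members rose, against 12.8% of all genes, and 2 fell, against 14.5%. The largest rises were those of Hspa5 (2.40-fold), Herpud1 (2.39-fold) and Fkbp2 (2.21-fold), and the larger of the falls were those of Eif2ak3 (1.95-fold) and Xbp1 (1.75-fold). Derl3, a degradation channel gene of professional secretory cells, had 0 counts in each of the 6 libraries, which allows at most 0.135 to 0.150 CPM with ASPS-A1 and 0.115 to 0.13 CPM in control (3 counts per library, counting error only). In bulk RNA, fewer cells that express a gene and less RNA per cell cannot be told apart.

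**Figure D1:**
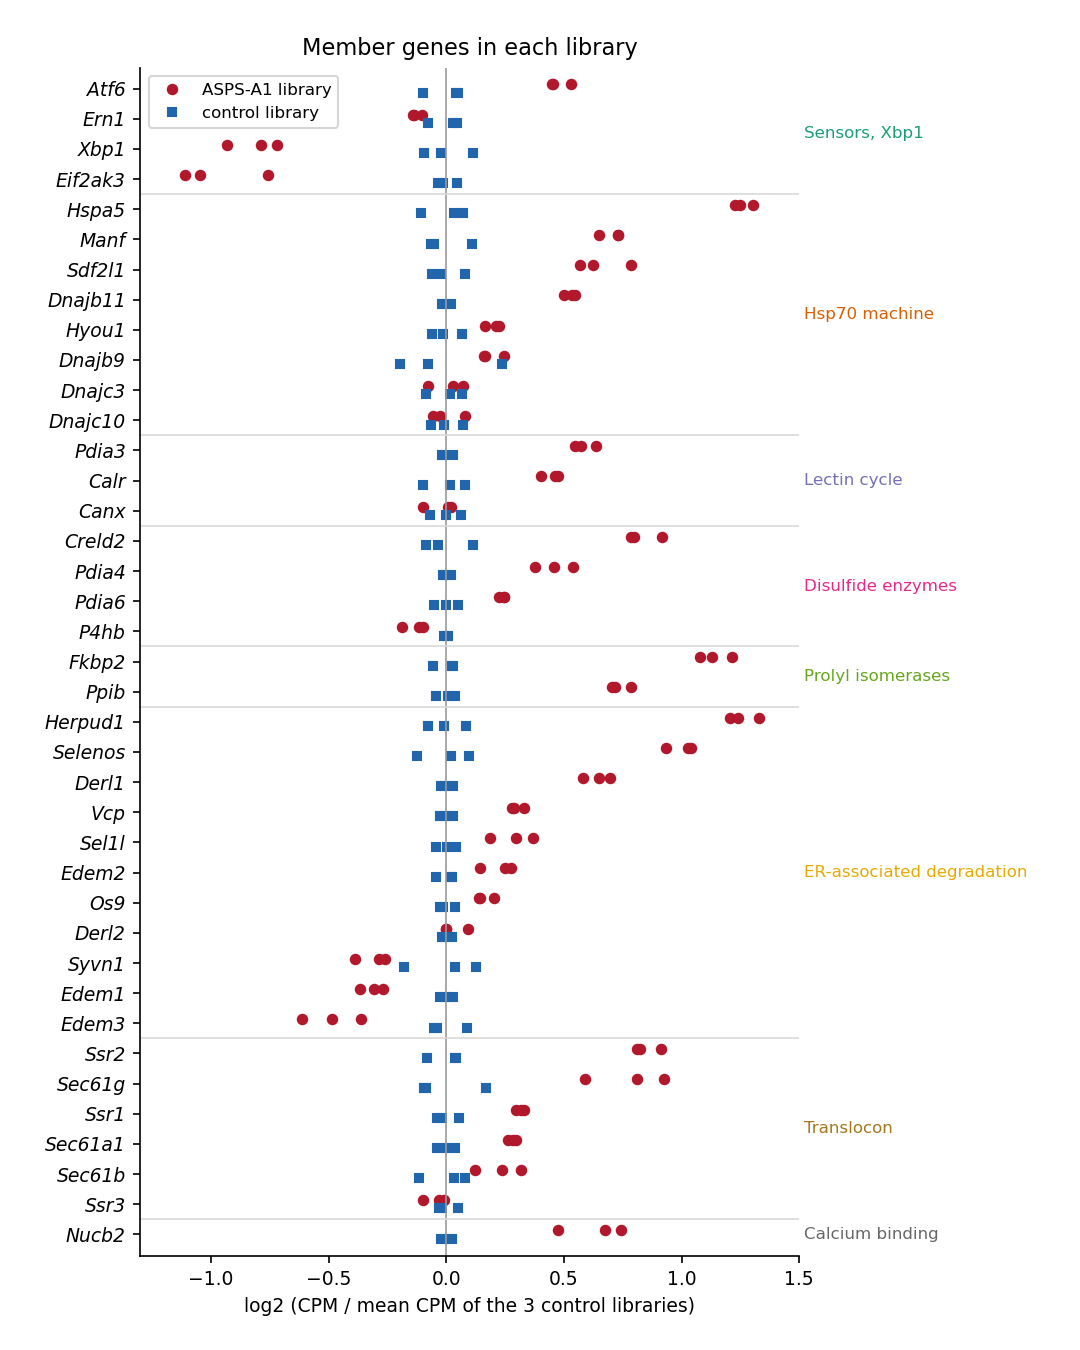
Each point is 1 library, given as the log2 ratio of its CPM to the mean CPM of the 3 control libraries (x axis), for the 39 tested members grouped by role (y axis); red circles are ASPS-A1 and blue squares control. The ASPS-A1 points of Hspa5, Herpud1 and Fkbp2 lie farthest to the right and those of Eif2ak3 and Xbp1 farthest to the left, while Dnajc3, Dnajc10, Canx and Ssr3 overlap with control.

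Direction depended in part on the scaling of the libraries. With library totals alone in place of TMM factors, all log2 fold changes shifted by about −0.20, and 19 members rose and 12 fell, against 21.6% and 46.7% of all genes. Hyou1 (log2 fold change 0.0054), Pdia6 (0.043), Sel1l (0.091), Edem2 (0.026), Sec61a1 (0.086), Sec61b (0.033) and Os9 (−0.034) were then not past the threshold, and Ern1 (−0.32), Dnajc3 (−0.19), Dnajc10 (−0.20), Canx (−0.22), Derl2 (−0.17) and Ssr3 (−0.24) were called lower. The remaining 19 rises and 6 falls held under that scaling.

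Transcript length also moved with the fold changes. Across the 39 tested members, the Spearman correlation between transcript length and log2 fold change was −0.59, beside −0.38 across 11354 genes with a known length. Genes are not independent replicates, and their counts share the same libraries. All 11 tested members with transcripts under 2000 nt rose, with a median of 0.78 against 0.31 for all genes of that length. Of 18 members of 2000 to 4000 nt, 11 rose and 3 fell (median 0.23 against −0.050 for all such genes). Of 10 members of 4000 nt and over, 4 rose and 3 fell (median 0.0036 against −0.26). The shares of all genes called were not counted by class of length, so these counts of members only describe the list.

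When trends on transcript length and GC content were removed library by library, the members stayed above other genes in each class of length. Their medians were then 0.41, 0.18 and 0.18 from short to long, against 0.030, −0.0019 and −0.020 for all genes. Under these offsets 29 members rose and 4 fell, against 32.1% and 30.5% of all genes. Sec61b, the shortest transcript of the set at 564 nt, turned lower (log2 fold change −0.28, adjusted p = 1.33e-05), and Ern1 (0.14), Dnajc3 (0.21), Dnajc10 (0.14) and Canx (0.088) were called higher. The falls of P4hb, Syvn1 and Edem1 were no longer past the threshold.

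**Figure D2:**
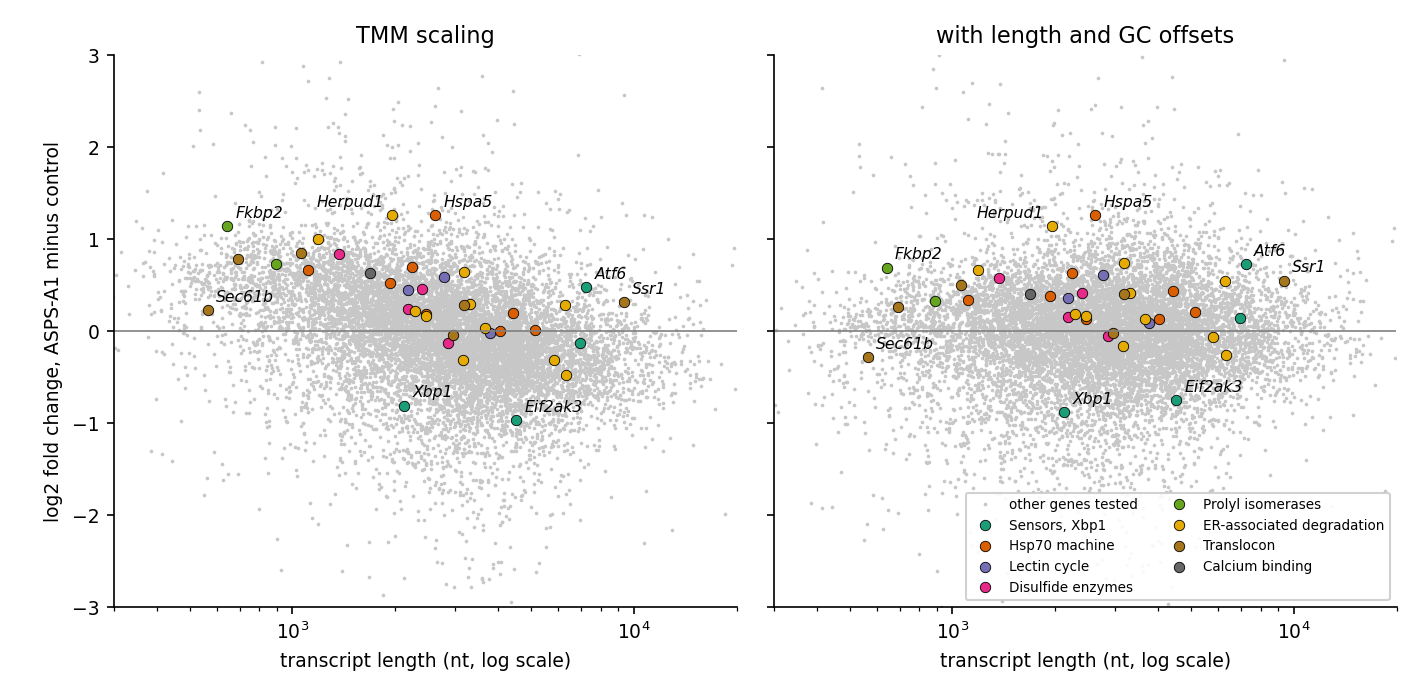
Log2 fold change (y axis, ASPS-A1 minus control) is plotted against transcript length (x axis, log scale) for all tested genes with a known length (grey; those beyond 3 or outside the length range are not drawn) and for the members by role (colours), with TMM scaling (left) and with length and GC offsets (right). On the left the short members, such as Fkbp2, all lie above 0, and on the right Sec61b lies below 0 while Hspa5 and Herpud1 stay near their places.

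Among the sensors, the 3 branches differed in transcript level. Atf6, which encodes the sensor that is cleaved in the Golgi to release a transcription factor, had 180, 180 and 190 CPM in the ASPS-A1 libraries, against 136, 135 and 123 CPM in control. It rose 1.40-fold with no overlap of the groups, by 0.48 ± 0.05 on the log2 scale (SE, adjusted p = 1.77e-11). Eif2ak3, which encodes PERK, had 16.4, 17.2 and 21.0 CPM with ASPS-A1, against 34.6, 35.2 and 36.6 CPM in control, and fell (log2 fold change −0.97 ± 0.09 SE, adjusted p = 2.70e-13). The highest treated library was well below the lowest control library.

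Xbp1, whose mRNA is cut by IRE1 to make an active transcription factor, had 58.6, 53.2 and 61.6 CPM with ASPS-A1, against 99.6, 94.8 and 109 CPM in control. Its log2 fold change was −0.81 ± 0.06 (SE, adjusted p = 1.60e-15), again with no overlap. Counts per gene do not separate the cut from the uncut mRNA, so the active form was not measured. Ern1, which encodes IRE1α itself, had 44.7, 44.5 and 45.7 CPM with ASPS-A1, against 50.02, 50.7 and 46.5 CPM in control, a log2 fold change of −0.13 ± 0.07 (SE, adjusted p = 0.0959). The groups of Ern1 did not overlap, by a narrow gap. It was called lower without control replicate 3 (−0.17, adjusted p = 0.0496), with upper-quartile factors and with library totals, and called higher with the length and GC offsets.

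Most genes listed for the PERK branch had the opposite sign to Eif2ak3. The activity of PERK was not measured, and whether it had a part in their changes was not tested. Of 10 targets and partners of the PERK branch, 8 rose and 1 fell (90% called, against 65.3% of all genes). Ddit3, which encodes CHOP, had 286, 292 and 266 CPM with ASPS-A1, against 61.8, 65.6 and 53.7 CPM in control. Ppp1r15a, which encodes the phosphatase subunit that restores translation, had 105, 109 and 109 CPM with ASPS-A1, against 29.4, 27.7 and 21.3 CPM in control. Sesn2, a stress-induced regulator of nutrient signalling, was the gene that fell (14.4 to 14.99 CPM with ASPS-A1, against 27.1 to 30.4 CPM in control).

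Of 8 genes for ATF6-cleaving proteases and relatives of ATF6, 2 rose and 2 fell (50% called, against 65.3% of all genes). Creb3, an ER-bound factor of the same kind as ATF6, averaged 36.3 ± 0.727 CPM with ASPS-A1 and 27.1 ± 1.82 CPM in control (SD, n = 3 each), and the related Atf6b averaged 126 ± 5.06 CPM with ASPS-A1 and 116 ± 3.14 CPM in control. With library totals alone the change of Atf6b was −0.070 and not past the threshold. The protease genes Mbtps1 (log2 fold change −0.30) and Mbtps2 (−0.15) fell. Calls on Atf6b and Mbtps2 were marginal and were lost without ASPS-A1 replicate 2 (0.089, adjusted p = 0.124 for Atf6b, and −0.14, adjusted p = 0.0780 for Mbtps2), without control replicate 2 or 3 for either gene, and without ASPS-A1 replicate 1 or control replicate 1 for Mbtps2. With the length and GC offsets neither protease was called (−0.094 for Mbtps1 and −0.031 for Mbtps2). Among 8 described substrates of mRNA decay by IRE1, 4 were abundant enough to test. Of these 4, 3 rose, where 32.4% of all genes rose. With the length and GC offsets 1 rose, where 32.1% of all genes rose, and the list median was 0.091 in place of 0.39. Bloc1s1, the best known of these substrates, averaged 16.1 ± 1.32 CPM with ASPS-A1 and 11.2 ± 1.20 CPM in control, a log2 fold change of 0.52 that became 0.047 (adjusted p = 0.728) with the offsets.

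In the Hsp70 machine of the ER lumen, Hspa5 had the largest rise and 3 cochaperone genes did not pass the threshold. Hspa5 encodes BiP, the Hsp70 chaperone that binds unfolded chains and holds the sensors inactive. It had 4948, 4863 and 5140 CPM in the ASPS-A1 libraries, against 2125, 2183 and 1931 CPM in control. All treated libraries were far above all control libraries, and the log2 fold change was 1.26 ± 0.05 (SE, adjusted p = 3.12e-26), with the same value, 1.26, under the length and GC offsets. Per kilobase of transcript Hspa5 moved to rank 61 among tested genes with ASPS-A1, against rank 98 in control.

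Of the 8 genes of this group, 5 rose and 3 passed in neither direction, where 32.4% of all genes rose and 33.0% fell. With the length and GC offsets 7 rose and 0 fell, where 32.1% of all genes rose and 30.5% fell. With library totals alone 4 rose and 2 fell, where 21.6% of all genes rose and 46.7% fell. Manf, a small secreted ER stress protein that stabilises BiP with its clients, had 369, 391 and 391 CPM with ASPS-A1, against 228, 254 and 225 CPM in control. Sdf2l1, a partner of the BiP cochaperones, had 188, 218 and 195 CPM with ASPS-A1, against 122, 134 and 125 CPM in control. For either gene the lowest treated library was above the highest control library.

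The J-domain cochaperones, which load clients onto BiP and stimulate its ATPase, did not move together. Dnajb11 rose 1.44-fold (162 ± 2.81 CPM with ASPS-A1, 112 ± 1.49 CPM in control, SD, n = 3 each). Dnajb9, which also restrains IRE1, had 27.9, 26.4 and 26.3 CPM with ASPS-A1, against 20.6, 27.7 and 22.3 CPM in control. These overlapped, the log2 fold change was 0.19 ± 0.09 (SE, adjusted p = 0.0651), and without control replicate 2, the highest control library, it was 0.32 (adjusted p = 0.00380). Dnajb9 was also called higher with relative log expression factors (0.20, adjusted p = 0.0497). Dnajc3, which encodes a BiP cochaperone also described as an inhibitor of PERK, had 84.2 to 93.2 CPM with ASPS-A1 and 83.6 to 93.2 CPM in control, and Dnajc10, a disulfide reductase that works with BiP, had 134 to 147 CPM with ASPS-A1 and 133 to 147 CPM in control. The log2 fold change was 0.0083 ± 0.06 for Dnajc3 and −0.0010 ± 0.05 for Dnajc10 (SE). Hyou1, the nucleotide exchange factor of BiP, had a smaller rise, to 332 ± 7.32 CPM with ASPS-A1 against 289 ± 13.0 CPM in control (log2 fold change 0.20, adjusted p = 0.000230).

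Among the lectin chaperones that hold newly made glycoproteins, the genes for the soluble and the membrane-bound protein differed in transcript change. Calr, which encodes the soluble calreticulin, had 2078, 2091 and 1992 CPM with ASPS-A1, against 1408, 1590 and 1521 CPM in control (log2 fold change 0.45 ± 0.05 SE, adjusted p = 3.85e-11). Canx, which encodes the membrane-bound calnexin, had 955, 889 and 965 CPM with ASPS-A1, against 907, 994 and 951 CPM in control. Its groups overlapped (log2 fold change −0.022 ± 0.05 SE, adjusted p = 0.707). Pdia3, the disulfide isomerase that works with both lectins, had 1096, 1117 and 1165 CPM with ASPS-A1, against 744, 765 and 742 CPM in control, and rose by 0.59 ± 0.05 on the log2 scale (SE).

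Disulfide isomerase genes split between P4hb and the rest. P4hb encodes the archetypal protein disulfide isomerase, PDI, and is the one member of this group that fell. It had 2401, 2525 and 2548 CPM with ASPS-A1, against 2737, 2749 and 2712 CPM in control. The difference was small (log2 fold change −0.13 ± 0.05 SE, adjusted p = 0.0106), was not past the threshold without ASPS-A1 replicate 1 (−0.11, adjusted p = 0.0916), and was −0.057 (adjusted p = 0.156) with the offsets. Pdia4 (273 ± 15.1 CPM with ASPS-A1, 198 ± 2.31 CPM in control) and Pdia6 (776 ± 6.17 CPM with ASPS-A1, 658 ± 23.2 CPM in control), both isomerases found with BiP, rose by 0.46 and 0.24 on the log2 scale. Creld2, an ER stress-induced protein with isomerase activity, had 124, 134 and 123 CPM with ASPS-A1, against 69.5, 77.0 and 67.1 CPM in control, a 1.78-fold rise.

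These genes belong with the oxidase that recharges PDI. Ero1a, the ER oxidoreductase, was lower in every treated library, with 1715, 1633 and 1851 CPM with ASPS-A1, against 4286, 4287 and 4229 CPM in control (2.46-fold, adjusted p = 6.75e-27, edgeR). In a list of 30 other folding enzymes, 27 were tested, 12 rose and 6 fell. The called share, 66.7%, lay near that of all genes. With library totals alone 6 rose and 12 fell, where 21.6% of all genes rose and 46.7% fell. Cnpy2 and Fkbp11, a small ER protein and a membrane-anchored prolyl isomerase, had log2 fold changes of 0.96 and 0.90, and Dnajc1, another ER cochaperone, had −0.58.

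Prolyl isomerases of the lumen, which speed the turning of proline bonds, rose for both members. Fkbp2 had 37.7, 40 and 36.4 CPM with ASPS-A1, against 17.6, 17.5 and 16.6 CPM in control (log2 fold change 1.14 ± 0.08 SE, adjusted p = 1.76e-16). Ppib, which encodes cyclophilin B, had 336, 356 and 340 CPM with ASPS-A1, against 207, 212 and 200 CPM in control. Neither gene overlapped between groups. Their transcripts are short, 642 nt and 892 nt, and with the length and GC offsets the log2 fold changes were 0.69 for Fkbp2 and 0.32 for Ppib, still past the threshold. Whether counting used strand is not known, and 25.0% of the annotated exon length of Ppib is shared with Snx22 on the other strand, so that reads of the 2 genes may not be separated.

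**Figure D3:**
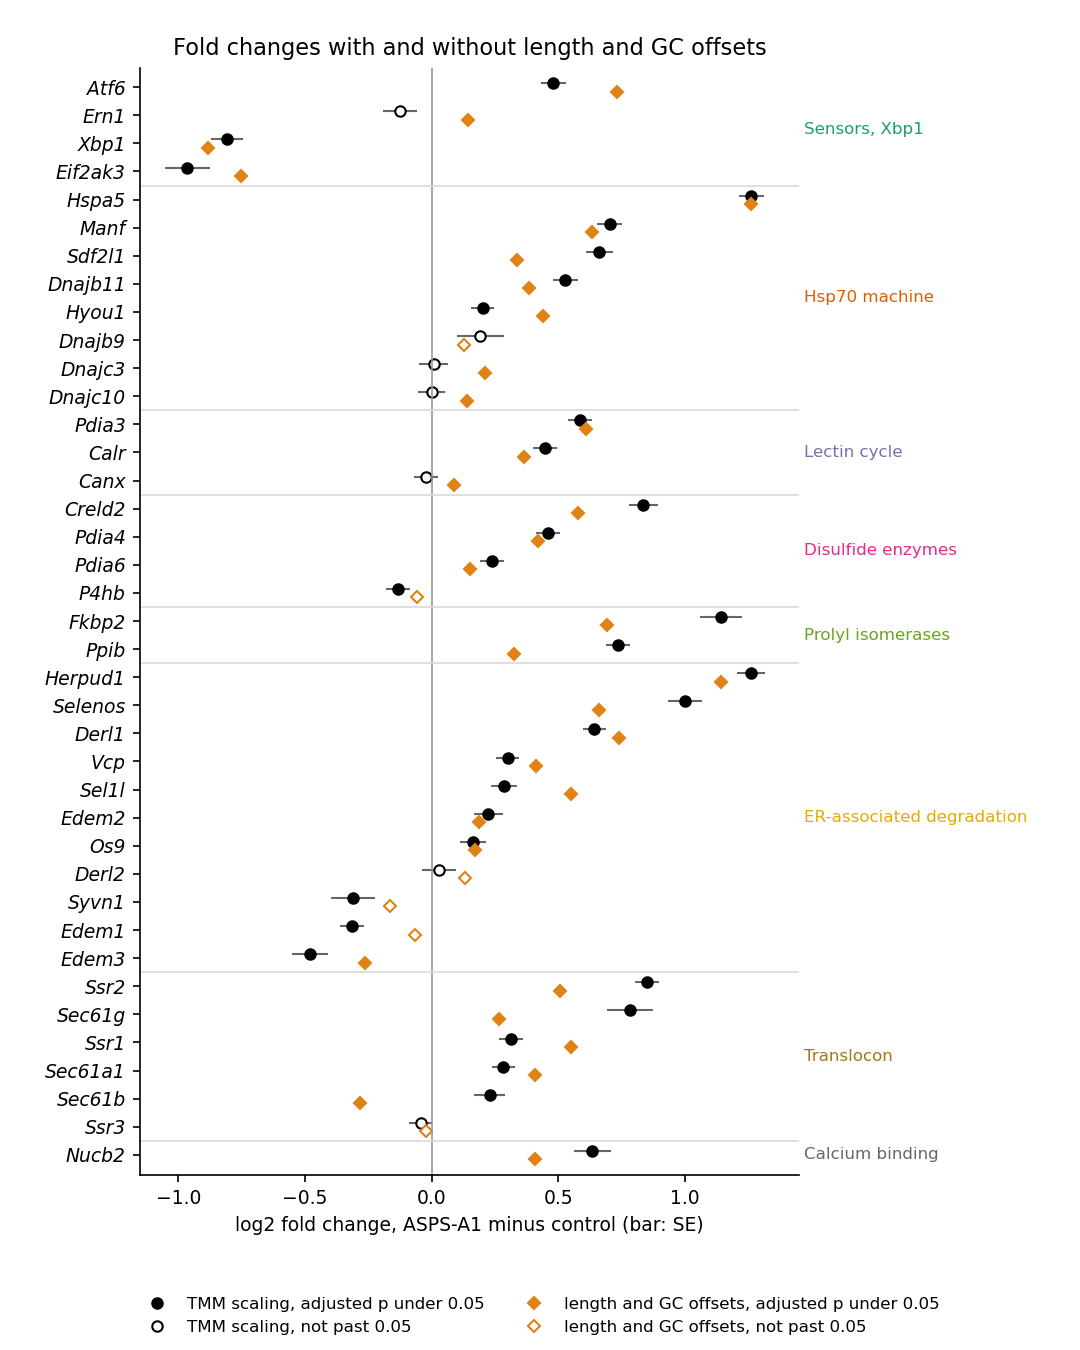
Log2 fold changes (x axis, ASPS-A1 minus control) of the 39 tested members by role (y axis) are shown with TMM scaling (circles, bars are SE) and with length and GC offsets (diamonds); filled symbols have an adjusted p under 0.05. Hspa5 stays at 1.26 under either fit, Fkbp2 moves from 1.14 to 0.69, and Sec61b is the one called gene that changes side, from 0.23 to −0.28.

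ER-associated degradation (ERAD) genes moved in both directions. Of 12 members, Derl3 was at 0, and of the 11 tested 7 rose and 3 fell, Derl2 being the gene that passed in neither direction. Over all genes tested 32.4% rose and 33.0% fell. With library totals alone 4 rose and 4 fell, where 21.6% of all genes rose and 46.7% fell. With the length and GC offsets 7 rose and 1 fell, where 32.1% of all genes rose and 30.5% fell. The members that rose included membrane parts of the retrotranslocation complex. Herpud1, a membrane scaffold of that complex, had 142, 151 and 138 CPM with ASPS-A1, against 63.6, 59.5 and 56.7 CPM in control (log2 fold change 1.26 ± 0.06 SE, adjusted p = 4.94e-24, and 1.14 with the offsets). Selenos, a selenoprotein that ties the VCP ATPase to the membrane, had 65.8, 70.1 and 70.7 CPM with ASPS-A1, against 34.9, 31.6 and 36.7 CPM in control, a 2.00-fold rise that was 0.66 on the log2 scale with the offsets.

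Derl1, a channel component, had 321, 332 and 307 CPM with ASPS-A1, against 204, 209 and 202 CPM in control, a 1.56-fold rise. Its relative Derl2 had 45.9 to 49.0 CPM with ASPS-A1 and 45.4 to 46.8 CPM in control, with a log2 fold change of 0.030 ± 0.07 (SE, adjusted p = 0.716). Vcp, the ATPase that pulls substrates out of the membrane, rose 1.23-fold, Sel1l, the adaptor of the ubiquitin ligase, rose 1.22-fold, and Os9, a lectin that hands over misfolded glycoproteins, rose 1.12-fold (on the log2 scale it was at 0.11, adjusted p = 0.0561, with upper-quartile factors and at −0.034 with library totals alone, past the threshold with neither). Syvn1, the ligase itself (HRD1), fell instead, with 26.01, 25.6 and 23.8 CPM with ASPS-A1, against 27.5, 34.0 and 32.0 CPM in control (log2 fold change −0.31 ± 0.09 SE, adjusted p = 0.00137, and −0.17, adjusted p = 0.0750, with the offsets). The ligase gene and its adaptor therefore had opposite signs.

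The mannosidase-like Edem genes, which mark glycoproteins for degradation, also moved both ways. Edem1 had 176, 164 and 172 CPM with ASPS-A1, against 212, 216 and 208 CPM in control, and fell (log2 fold change −0.31 ± 0.05 SE). Edem3 had 42.8, 36.0 and 39.4 CPM with ASPS-A1, against 53.0, 58.6 and 53.6 CPM in control, and fell 1.40-fold. Edem2 had 82.8, 89.2 and 90.7 CPM with ASPS-A1, against 76.2, 72.7 and 76.2 CPM in control, and rose 1.17-fold. No pair of groups overlapped in these 3 genes. The 2 that fell have transcripts of 5817 and 6327 nt and Edem2 one of 2290 nt, and with the offsets Edem1 was at −0.068 (adjusted p = 0.149), Edem3 at −0.26 and Edem2 at 0.19.

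Among 24 other ERAD genes, 13 rose and 5 fell (75% called, against 65.3% of all genes). With library totals alone 7 rose and 7 fell, where 21.6% of all genes rose and 46.7% fell. Ubxn8, a membrane adaptor of VCP, rose 2.27-fold, from a low level (14.7 ± 2.15 CPM with ASPS-A1, 6.44 ± 0.528 CPM in control), and Ube2g2, a ubiquitin-conjugating enzyme of the pathway, rose 1.70-fold. Fam8a1, a cofactor of HRD1, fell 1.46-fold, and the ligase gene Rnf139 fell 1.31-fold. Leaving out ASPS-A1 replicate 3 lowered the number of falls to 3, as did leaving out control replicate 3.

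In the translocon, which passes new chains into the ER, 5 of 6 members rose and Ssr3 did not pass. Over all genes tested 32.4% rose and 33.0% fell. With library totals alone 3 rose and 1 fell, where 21.6% of all genes rose and 46.7% fell. The 3 subunits of the Sec61 channel had unequal changes. Sec61a1, the pore, had 292, 294 and 287 CPM with ASPS-A1, against 233, 239 and 246 CPM in control (log2 fold change 0.28 ± 0.05 SE). Sec61g had 124, 135 and 107 CPM with ASPS-A1, against 66.5, 79.8 and 66.8 CPM in control (0.78 ± 0.09 SE), and Sec61b had 83.7, 88.6 and 77.4 CPM with ASPS-A1, against 75.1, 72.6 and 65.5 CPM in control (0.23 ± 0.06 SE). The last 2 encode small subunits with short transcripts, and with the length and GC offsets Sec61a1 was at 0.41, Sec61g at 0.27 and Sec61b at −0.28.

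The translocon-associated protein genes differed as well. Ssr2 had 350, 376 and 354 CPM with ASPS-A1, against 206, 205 and 189 CPM in control, a 1.80-fold rise. Ssr1 rose 1.24-fold, to 408 ± 5.02 CPM with ASPS-A1 against 328 ± 11.1 CPM in control, while Ssr3 had 436, 410 and 430 CPM with ASPS-A1, against 433, 454 and 429 CPM in control (log2 fold change −0.044 ± 0.05 SE, adjusted p = 0.418). The Ssr3 groups overlapped. An antisense gene shares 12.8% of the annotated exon length of Ssr2, and shares of 7.26% to 9.25% held for Vcp, Eif2ak3, Sec61a1 and Manf. The neighbours of Manf include Rbm15b on the same strand, while those of the other genes named here are antisense.

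Of 29 other genes for targeting, translocation and N-glycosylation, 20 rose and 3 fell (79.3% called, against 65.3% of all genes). With library totals alone 8 fell, where 46.7% of all genes fell. Ostc, a subunit of the oligosaccharyltransferase, had 186, 202 and 191 CPM with ASPS-A1, against 99.9, 106 and 91.9 CPM in control, and Srp54a, of the signal recognition particle, rose 2.03-fold. Magt1 (log2 fold change −0.48), an oxidoreductase subunit of the same transferase, and Tram1 (−0.35), a membrane protein beside the channel, fell. The list median of 0.32 was 0.18 with the offsets.

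Past the ER exit, the 28 genes of vesicle traffic between ER and Golgi had 12 rises and 7 falls. The called share of 67.9% lay near the 65.3% of all genes. With library totals alone 5 rose and 13 fell, where 21.6% of all genes rose and 46.7% fell. Mcfd2, a cargo receptor subunit, had a log2 fold change of 0.84 and Tmed9, a vesicle cargo protein, had 0.58. A pair of coat genes fell, Sec24d at 22.0 ± 1.58 CPM with ASPS-A1 and 38.5 ± 3.89 CPM in control, and Sec16a at 26.7 ± 3.20 CPM with ASPS-A1 and 42.7 ± 1.73 CPM in control (SD, n = 3 each).

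Nucb2, a calcium-binding protein of the secretory pathway that is also the precursor of nesfatin, had 47.9, 55.0 and 57.7 CPM with ASPS-A1, against 34.0, 34.4 and 35.1 CPM in control. It rose 1.55-fold, with no overlap.

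Levels between genes were compared per kilobase of transcript, and spanned from Eif2ak3 at 4.03 ± 0.541 to Hspa5 at 1907 ± 54.2 CPM per kilobase with ASPS-A1, and from Ern1 at 7.07 ± 0.320 to P4hb at 955 ± 6.55 in control. P4hb was the most abundant member in control, ahead of Hspa5 at 796 ± 50.4 and Calr at 690 ± 42.0 CPM per kilobase. With ASPS-A1, Hspa5 stood apart from the next members, Calr at 940 ± 24.5 and P4hb at 871 ± 27.7 CPM per kilobase. The level of Herpud1 was 73.5 ± 3.30 with ASPS-A1 and 30.7 ± 1.76 in control. Eif2ak3, Ern1 and Edem3 lay at the bottom of the order with ASPS-A1, where Ern1 and Edem3 with ASPS-A1 (6.47 ± 0.0966 and 6.23 ± 0.536 CPM per kilobase) did not differ beyond their spread.

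**Figure D4:**
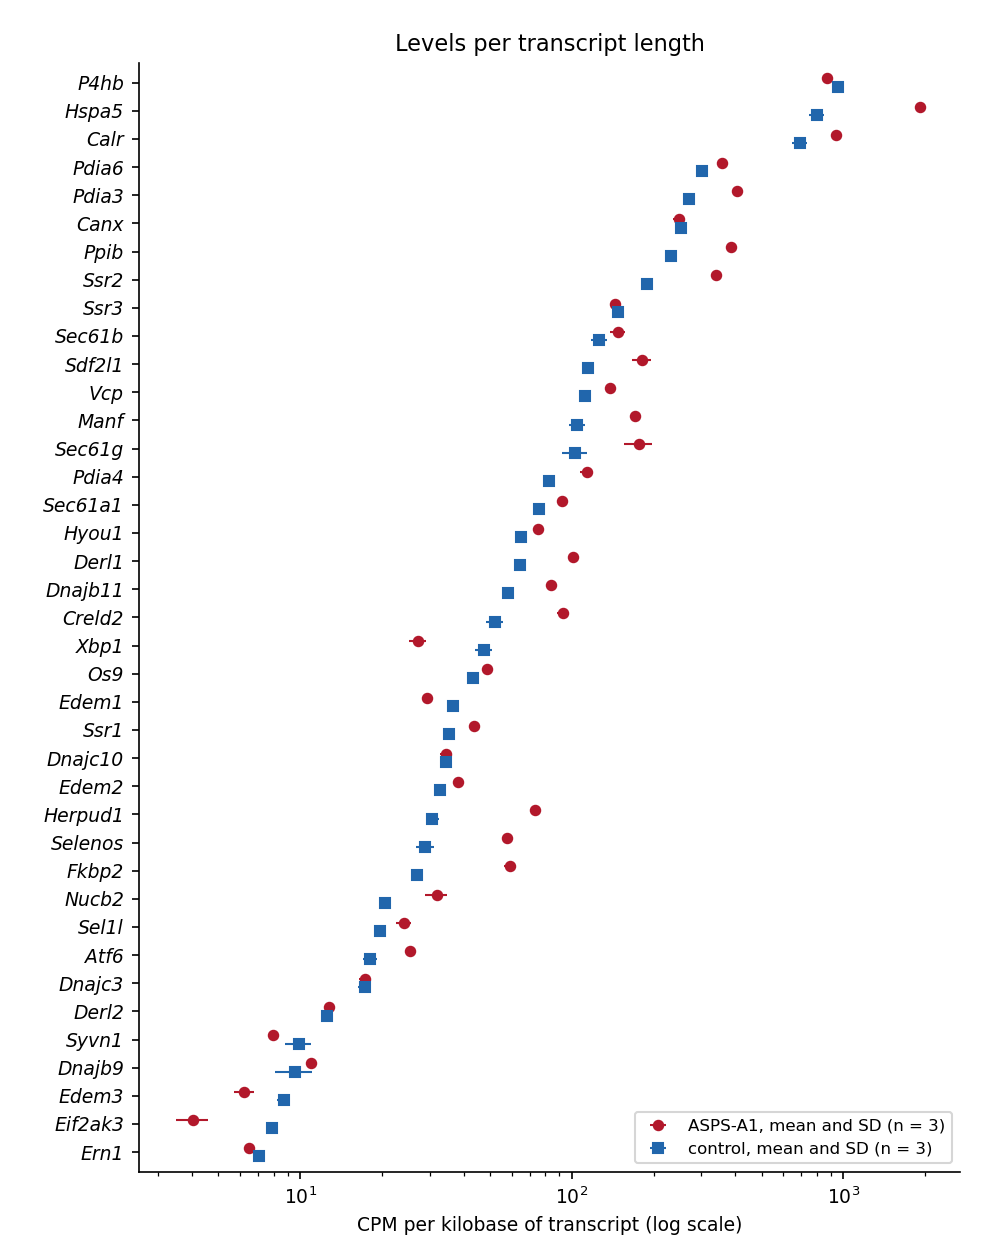
Mean level with SD (n = 3 per group) of each tested member, in CPM per kilobase of transcript on a log axis, is shown for ASPS-A1 (red circles) and control (blue squares), ordered by the control mean. Hspa5 passes P4hb to reach 1907 with ASPS-A1, and Xbp1, Eif2ak3 and the Edem1 and Edem3 genes lie left of their control values.

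As a share of all counts in a library, the 40 members held 1.70%, 1.67% and 1.72% with ASPS-A1, against 1.40%, 1.44% and 1.40% in control. Hspa5 alone held 0.467%, 0.448% and 0.482% with ASPS-A1, against 0.228%, 0.231% and 0.209% in control. Without it the members held 1.23% ± 0.00691 with ASPS-A1 and 1.19% ± 0.0180 in control (SD, n = 3 each), so most of the difference in the summed share came from this gene. Hspa5 was 27.4% ± 0.622 of the members' counts with ASPS-A1 and 15.7% ± 0.761 in control, and P4hb was 13.7% ± 0.318 with ASPS-A1 and 20.7% ± 0.419 in control. In counts, Hspa5 to P4hb had a ratio of 2.00 ± 0.0689 with ASPS-A1 and 0.761 ± 0.0431 in control.

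**Figure D5:**
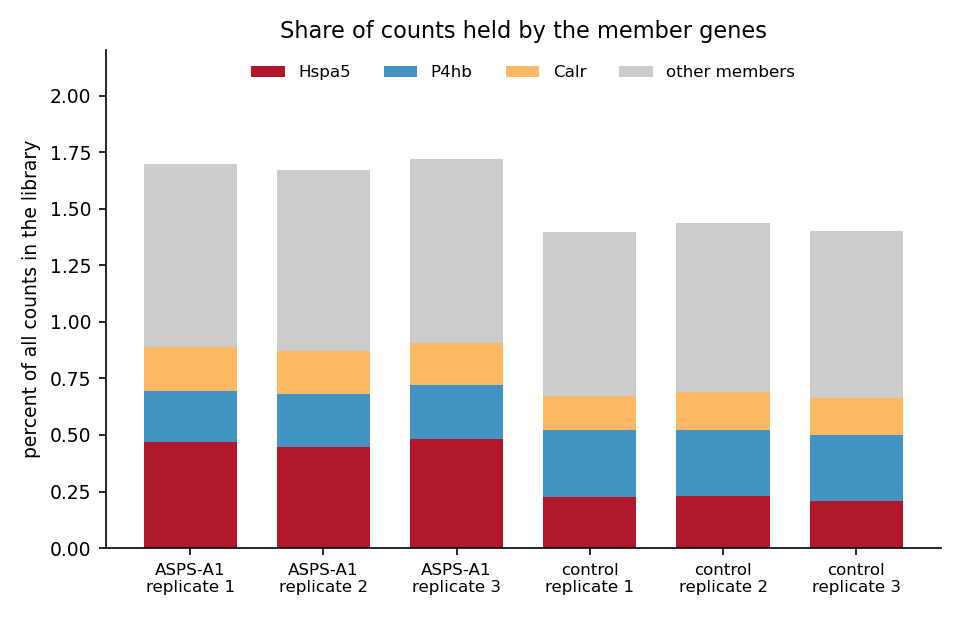
Stacked bars give the percentage of all counts in each library (y axis) held by Hspa5, P4hb, Calr and the other members together, with the 3 ASPS-A1 libraries left of the 3 control libraries. The totals are 1.67 to 1.72 with ASPS-A1 and 1.40 to 1.44 in control, and the Hspa5 segment makes up most of the difference.

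The ER stress elements were common among the members, and the genes that hold them did not share a direction. Members were chosen by role in the response for which these elements are best known. Matches among them could be foreseen, so the shares below are a description and no test. Both strands were searched, and a CCAAT box lies within each ERSE. ERSE matched 8 of the 34 members with a window (23.5%), against 0.137% of 27025 genes in the promoter table and 0.119% of 32851 windows. Of the 7 of these that could be tested, Hspa5, Creld2, Calr and Pdia6 rose, Syvn1 fell and Canx and Dnajc3 were not past the threshold. Their median log2 fold change was 0.24. Of 26 tested members whose window has no such match, 16 rose and 5 fell, with a median of 0.26. Among all genes tested 32.4% rose and 33.0% fell. The eighth member with a match was Derl3. The ERSE matches of members began between 162 and 44 bases before the start.

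ERSE-II matched 2 members, Herpud1 and Dnajb11, of which both rose, against 0.0444% of genes. The Dnajb11 match lies within the transcribed part, 7 to 17 bases after the start. The UPRE core matched Hspa5 and Vcp (5.88% of members with a window, against 2.22% of genes and 3.32% of tested genes). The element CARE, spelled TGATGNAA and bound by ATF4 with C/EBP factors, matched Herpud1 alone. That is 2.94% of members with a window, against 4.51% of genes and 2.85% of tested genes. CCAAT on its own was in 82.4% of members with a window and 41.1% of genes. A match describes letters in these windows, and no binding was measured.

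Outside the set, 8 further tested genes hold ERSE, with 1 rise and 3 falls past the threshold and a median log2 fold change of −0.23. Over all genes tested 32.4% rose and 33.0% fell, with a median of −0.021. Named here after their values were seen, because they belong to the ER, are Hsp90b1, Ero1b and Alg12. Hsp90b1 encodes the ER paralog of Hsp90, Ero1b a second PDI oxidase and Alg12 a mannosyltransferase of N-glycosylation. Hsp90b1 averaged 1881 ± 69.3 CPM with ASPS-A1 and 1903 ± 72.4 CPM in control (log2 fold change −0.017 ± 0.05 SE, adjusted p = 0.764). Ero1b averaged 49.7 ± 2.43 CPM with ASPS-A1 and 68.5 ± 1.34 CPM in control, and fell (−0.46 ± 0.06 SE). Alg12, the 1 gene of the 8 that rose, averaged 29.7 ± 1.22 CPM with ASPS-A1 and 25.3 ± 0.958 CPM in control (0.23 ± 0.08 SE, adjusted p = 0.0122). ERSE-II was held by 7 further tested genes, with a median log2 fold change of 0.096. Of these 7, Krtcap2 (0.71) and Rbm39 (0.29) rose and Gm46430 (−0.50) fell.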

How the data were processed

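Polyadenylated RNA was enriched with oligo(dT) beads and reverse transcribed with random primers, per the labels' protocols. The authors deposited whole-number counts per gene symbol, 1 column per library, and every column was used. Tools named in the submitters' processing notes are HTSeq (0.9.1), HISAT2 (2.1.0), DESeq (1.38.3) and fastp (0.22.0). Not given in the sources used here are the build, the annotation, whether strand was used and how multi-mapping reads were counted.

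Genes were kept with filterByExpr of edgeR 4.0.16 (minimum count 10, minimum total 15) in R 4.3.3, which left 11686, scaled with TMM factors and tested with glmQLFTest after robust estimateDisp and glmQLFit, two-sided. P-values were adjusted by Benjamini-Hochberg across these genes, with a threshold of 0.05. SE stands for the log2 fold change, without its sign, over root F. CPM use TMM-scaled library sizes. The script was tested on simulated data.

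Members and lists were chosen with earlier results of these data known. All 40 members are accounted for; from each pathway list the text names at most 2 called genes per direction with at least 10 CPM in the higher group. Transcript length and GC content came from GENCODE M21 (the principal transcript) for 97.2% of tested genes. The offsets remove, per library, a lowess trend (span 0.3) on length and then on GC content. Alternatives were other scalings, DESeq2 1.42.0, limma-voom (limma 3.58.1), no filter, a filter of 1 CPM in 3 libraries, the offsets, the replicate number as a block, and omission of each library in turn. No 2 libraries of a group looked like 1 library deposited again: chi-square per degree of freedom between them was 4.35 to 7.11. A further list of marker genes is not reported here.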

Additional observations from a re-analysis of the deposited data

How the results depend on the processing

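Across the alternatives 19 to 29 members rose and 4 to 12 fell. The fallen count of 12 came with library totals alone, and the median log2 fold change of tested members was then 0.091, against 0.23 with upper-quartile factors and 0.34 with the length and GC offsets. With relative log expression factors, DESeq2, limma-voom and the 2 other filters, 26 or 27 members rose and 6 fell. Leaving out 1 library gave 26 to 27 risen, 5 to 7 fallen, and a median of 0.28 to 0.30. With library totals alone 21.6% of all genes rose and 46.7% fell. Under that scaling 6 other folding enzymes rose and 12 fell, 7 other ERAD genes rose, and 8 targeting and glycosylation genes fell. Of the traffic genes 5 rose and 13 fell, and 1 gene of the ATF6 group rose and 4 fell. In that group 1 rose with upper-quartile factors and with no filter, 1 fell with relative log expression factors, with DESeq2 and with the replicate block, and 0 fell with the offsets, where 1 substrate of IRE1 decay rose. Leaving out 1 library gave 1 to 3 risen and 1 to 2 fallen genes of the ATF6 group and 3 to 5 fallen other ERAD genes. The block for the library number changed no call on a member (26 risen, 6 fallen). Same-numbered libraries had correlations of deviations of −0.032, 0.0072 and −0.0034, so no pairing by number was visible. Whether equal numbers mark a shared batch is not in the labels and cannot be told from these values.

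The direction turned for Ern1 (0.14), Dnajc10 (0.14), Canx (0.088) and Sec61b (−0.28) with the offsets, for Dnajb9 (−0.0027), Dnajc3 (−0.19), Derl2 (−0.17), Os9 (−0.034) and Atf6b (−0.070) with library totals, for Dnajc3 (−0.044) and Derl2 (−0.022) with upper-quartile factors, for Dnajc3 (−0.00037) with no filter, and for Dnajc10 with relative log expression factors (0.011) and DESeq2 (0.010). Without 1 library the values ran from −0.037 to 0.043 for Dnajc3, −0.041 to 0.034 for Dnajc10, −0.058 to 0.011 for Canx and −0.0070 to 0.047 for Derl2. Apart from Os9, Sec61b and Atf6b, none of these was called in the fit reported. The cause of these turns was not tested.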
